A study of Mus musculus with 6 samples.

Results

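Charcot-Marie-Tooth disease and the hereditary sensory neuropathies are inherited disorders of the long axons of the peripheral nerve and of the Schwann cells that wrap them. The genes described here are 35 genes that are mutated in these disorders, chosen by name from the table's gene column and not by any measured value, and with the proteins of compact myelin left out. All 35 were found among the 45703 genes of the deposited count table. The samples were 6 replicate cultures, all of 1 group, from dorsal root ganglia of wild type C57BL/6 mice that were 4 to 6 weeks old. Ganglia were dissociated with enzymes and the cells were grown for 7 days in medium that held 10% serum and 10 ng/ml of EGF and of FGF, and RNA from 2 dishes made 1 sample. No culture carried a mutation in any of these genes, no condition was varied, and the design text calls the samples biological replicates without saying how many mice gave rise to each.

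Many of these genes act in every cell, although the disorder affects the nerve. Their products charge transfer RNAs, carry cargo along microtubules, fuse mitochondria, turn over the lipids of endosomes and lysosomes, shape the endoplasmic reticulum, build the cytoskeleton or fold proteins. In the peripheral nerve some are needed mainly by the neuron, whose axon depends on transport from the cell body, and some mainly by the Schwann cell, in which Sh3tc2, Ndrg1, Fgd4 and the myotubularins are known to be required for normal myelin.

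The libraries held between 20070639 and 22968642 counts. The 12 neuron markers and the 8 glial lineage markers examined were each present at 1 CPM or more in every library, where CPM is a gene's count scaled to its library's total in the usual per-million unit. Of 8 lymphocyte markers, 6 had no more than 3 counts in any library. Markers of other cell types differed in level between cultures: the summed level of 8 fibroblast markers was lowest in replicate 1, at 3342 CPM, and highest in replicate 5, at 14080 CPM, while 8 mural cell markers summed to between 306.8 and 2023 CPM, 8 macrophage markers to between 16.85 and 174.9 CPM and 8 endothelial markers to between 10.84 and 141.6 CPM. Replicate 5 stood apart, with the highest fibroblast and the lowest neuron and glial lineage marker sums, so results that rest on it are given with and without it. In such bulk samples, fewer cells of a type and less RNA per cell cannot be told apart.

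Every member was expressed in every culture. All 35 reached 1 CPM in all 6 libraries, with mean counts from 269.8 for Ighmbp2 upward, and all 35 passed the filter on low counts. Divided by combined exon length, so that genes can be set beside each other, the member levels spanned 109.7-fold, from Ighmbp2 at 1.57 ± 0.146 CPM per kb to Ndrg1 at 172 ± 27.1 CPM per kb (SD, n = 6). The median over the members was 25.5 CPM per kb, against 7.20 CPM per kb over the 14998 genes tested. Of the members, 31 lay above that median and 12 were among the highest 10% of the tested genes. Together they took 0.825% ± 0.0733 of all counts (SD, n = 6), most in replicate 1 at 0.939% and least in replicate 5 at 0.733%.

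**Figure D1:**
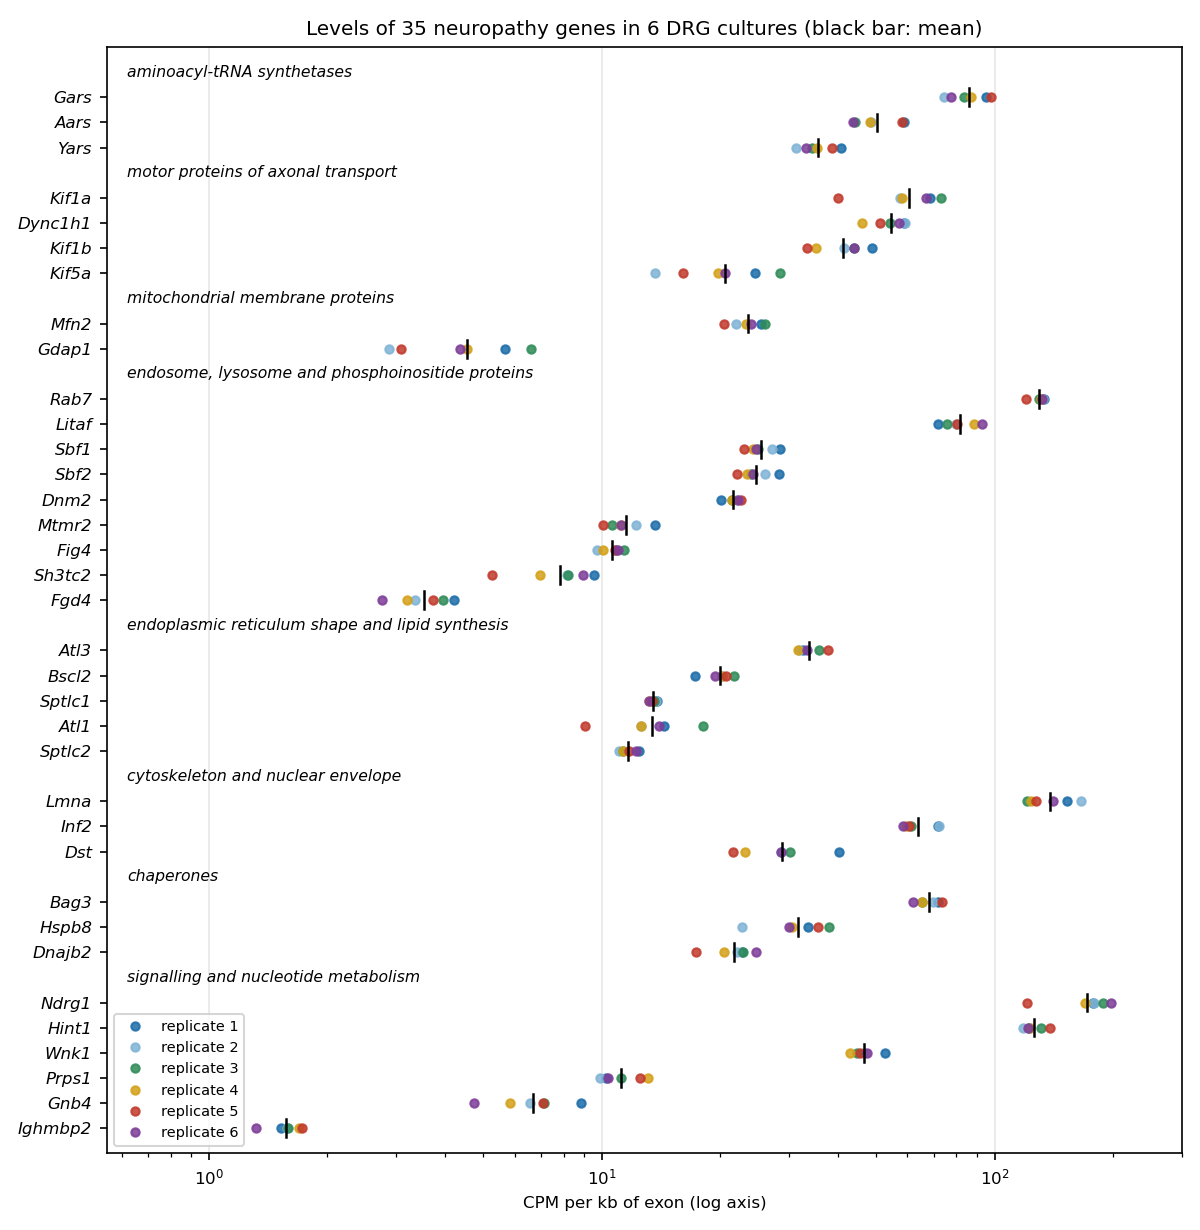
Level of each of the 35 genes in CPM per kb of exon on a log axis, with 1 point per culture coloured by replicate and a black bar at the mean, grouped by what the products do. Ndrg1, Lmna, Rab7 and Hint1 have means above 100 CPM per kb, Ighmbp2 is the lowest, and the points of Gdap1, Kif5a and Dst are spread most widely relative to their means.

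The order of the members was loose in its middle. Of the 34 pairs of neighbours in the order of mean level, 30 had overlapping ranges, and in 7 the higher gene was higher in all 6 libraries. The order had 4 steps at which the ranges of neighbours did not overlap: Hint1 above Gars, Bscl2 above Sptlc1, Fig4 above Sh3tc2, and Fgd4 above Ighmbp2. Genes that were not neighbours could still overlap across a step. Kif5a reached down to 13.68 CPM per kb and Sptlc1 up to 13.84, and Atl1 reached down to 9.09 and Sh3tc2 up to 9.54. The order thus separated a top set of Ndrg1, Lmna, Rab7 and Hint1 from the rest. By mean level it placed Sh3tc2, Gnb4, Gdap1, Fgd4 and Ighmbp2 at the bottom, without a clear gap above them.

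The spread between cultures differed between members. A chi-square test of each gene's 6 counts against its scaled library sizes, with Benjamini-Hochberg adjustment over all tested genes, called 32 of 35 members as varying beyond counting noise, beside 76.3% of all genes tested. Members were counted more deeply, with a median of 2943 counts per library against 503.6 for all tested genes, so that smaller differences could be seen. The exceptions were Sptlc1 (adjusted p = 0.487), Fig4 (adjusted p = 0.121) and Ighmbp2 (adjusted p = 0.0899). Relative spread is a measure that depends less on depth: the median coefficient of variation (CV, the SD as a percentage of the mean) was 9.91% over the members and 12.1% over all tested genes. It ran from 2.01% for Sptlc1 to 31.9% for Gdap1.

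The members that charge transfer RNAs were Gars, Yars and Aars, the synthetases for glycine, tyrosine and alanine, mutated in axonal and intermediate forms of the disease. Gars (chromosome 6, 55038001 to 55079504, plus strand, GRCm38.p6) had a lowest, median and highest level of 177.8, 203.7 and 234.5 CPM, and a mean of 85.9 ± 9.38 CPM per kb (SD, n = 6). Aars (chromosome 8, 111027778 to 111055569, plus strand) had 195.6, 216.2 and 263.8 CPM and a mean of 50.3 ± 6.69 CPM per kb. Yars (chromosome 4, 129189734 to 129219240, plus strand) had 81.5, 91.1 and 106.4 CPM and a mean of 35.5 ± 3.52 CPM per kb.

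All of these synthetases had their highest levels in replicates 1 and 5, the cultures with the lowest and the highest fibroblast marker score. For Gars these were 226.8 and 234.5 CPM, with the other cultures from 177.8 to 207.7 CPM, and for Aars they were 263.8 and 259.6 CPM, with the others from 195.6 to 216.6 CPM. Within libraries, the difference between Gars and Yars stayed between 1.22 and 1.34 on the log2 scale, while Gars minus Aars ran from 0.62 to 0.92 and Aars minus Yars from 0.36 to 0.63. Of the 17 other cytosolic synthetase genes, 7 also had their 2 highest levels in replicates 1 and 5, namely Mars1, Nars, Sars, Cars, Lars, Iars and Eprs. This placement held for 5.86% of all tested genes. All 17 were expressed at 1 CPM or more in every library, from Vars at 7.11 ± 1.29 CPM per kb to Nars at 111 ± 10.8 CPM per kb (SD, n = 6).

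**Figure D2:**
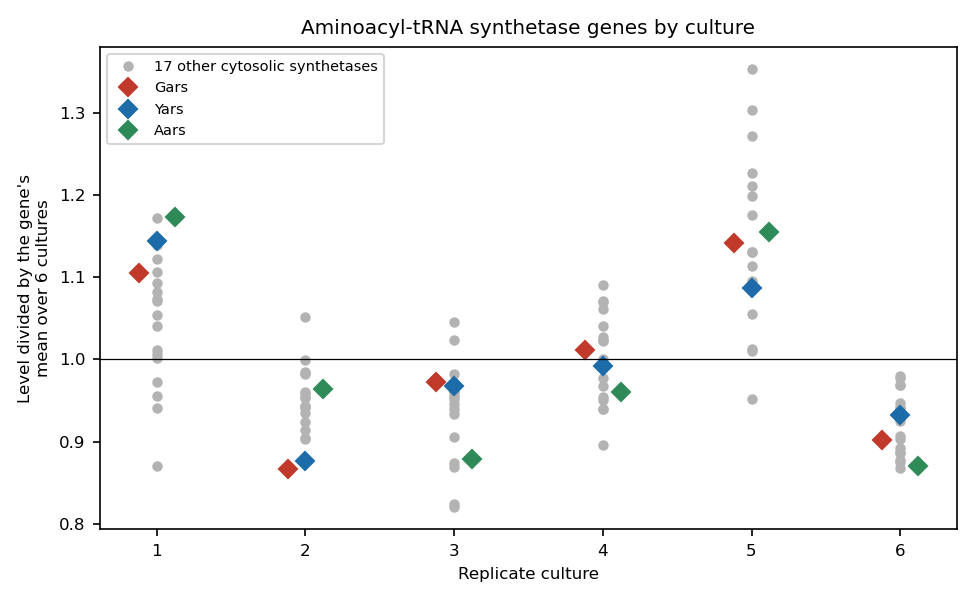
Level of 20 cytosolic aminoacyl-tRNA synthetase genes in each replicate culture, divided by the gene's mean over the 6 cultures, with Gars, Yars and Aars as coloured diamonds and the 17 others as grey points. The 3 members are above their mean in replicates 1 and 5, by factors from 1.09 to 1.17, and below or close to it in the others.

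The start sites of Gars, Yars and Aars are shown because the promoters of many synthetase genes are known to carry a certain element. ATF4, the transcription factor of the amino acid and stress response, binds this element with C/EBP partners. In RefSeq promoter windows of GRCm38.p6, from 250 bases before to 50 bases after a start site, the letters TGATGNAA were searched on both strands. They occurred at 4 of the 29 members that have such a window (13.8%), namely Gars, Yars, Aars and Prps1, at 2 of 10 other synthetase genes, Iars and Tars, and at 2.83% of tested genes with a window. A window around 1 match of each synthetase member is given from 5′ to 3′ on the gene's strand, which is plus for all 3 genes, with the match in capitals. These windows lie at chr6:55037960-55037989 for Gars, chr4:129189895-129189924 for Yars, and chr8:111033840-111033869 for Aars.
Gars, match 30 to 23 bases before the start: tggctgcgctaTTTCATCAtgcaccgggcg
Yars, match at bases 4 to 11 after the start: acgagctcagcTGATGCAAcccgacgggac
Aars, match at bases 10 to 17 after the start: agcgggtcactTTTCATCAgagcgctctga
The matches shown for Gars and Aars read on the opposite strand and that of Yars on the gene's own strand. The start sites used for Yars and Aars lie inside the gene span listed in the table. The 250 bases before the Gars start (chr6:55037751-55038000, plus strand) show the surroundings of its match, which stands in GC-rich sequence close to the start.
Gars, 250 bases before the start: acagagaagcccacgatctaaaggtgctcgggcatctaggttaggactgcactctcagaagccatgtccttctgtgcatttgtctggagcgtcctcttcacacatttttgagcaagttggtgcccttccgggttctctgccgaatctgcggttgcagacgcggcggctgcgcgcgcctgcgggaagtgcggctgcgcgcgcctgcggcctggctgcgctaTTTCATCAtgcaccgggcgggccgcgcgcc
A match is a description of the letters, and binding was not measured. Of the other synthetase genes, Iars had both the letters and its 2 highest levels in replicates 1 and 5. Tars had only the letters, and Mars1, Sars and Eprs, which have a window, had only that placement. A link between the letters and the levels was not tested.

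The motors of axonal transport were Kif1a and Kif1b, kinesins that carry synaptic and other vesicles, Kif5a, a neuronal heavy chain of conventional kinesin, and Dync1h1, the heavy chain of the dynein that moves cargo back to the cell body. All lay above the median of the tested genes per length, at 60.7 ± 11.8 CPM per kb for Kif1a, 54.4 ± 5.05 for Dync1h1, 41.1 ± 5.87 for Kif1b and 20.6 ± 5.43 for Kif5a (SD, n = 6). Kif5a (chromosome 10, 127225695 to 127266348, minus strand) had levels of 205.8, 114.4, 238.6, 165.1, 134.9 and 172.8 CPM in replicates 1 to 6. Its highest culture was replicate 3 and its lowest were replicates 2 and 5, which were also the extremes of the neuron marker score. Kif1a (chromosome 1, 93015455 to 93102039, minus strand) had 599.4, 502.8, 640.4, 508.7, 350.7 and 587.8 CPM in the same order. Replicate 3 was again the highest, and replicate 5 lay far below the other 5.

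Kif1b (chromosome 4, 149176319 to 149307773, minus strand) was measured at 812.3, 688.0, 727.2, 582.7, 553.7 and 729.8 CPM in replicates 1 to 6. Replicates 4 and 5, the cultures with the highest fibroblast marker score, were its lowest. Dync1h1 had a lowest, median and highest level of 663.4, 800.3 and 850.7 CPM and a smaller CV, 9.29%, than Kif1b at 14.3%, Kif1a at 19.5% and Kif5a at 26.4%. Of the 15 other kinesin, dynein and dynactin genes listed, all were expressed at 1 CPM or more in every library, with Dctn2 the highest at 144 ± 12.2 CPM per kb and Dync1i1 the lowest at 3.99 ± 1.21 CPM per kb (SD, n = 6).

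The motors were compared with their relatives within each library, as differences in log2(CPM per kb + 0.1), with an exact two-sided sign-flip permutation test over 64 sign patterns. The smallest p this test can give is 0.0312, and p-values were adjusted over all 28 pairs of members and relatives compared. Kif5b, the heavy chain made in all tissues, was higher than Kif5a by 1.82 ± 0.32 (SD, n = 6, exact permutation adjusted p = 0.0324), with the smallest difference, 1.34, in replicate 3. Kif5b was also higher than Kif1b, by 0.79 ± 0.17, in 6 of 6 libraries with the same adjusted p. Kif1b was lower than Kif1a by 0.55 ± 0.18 in 6 of 6 libraries, least in replicate 5, with the same adjusted p. Both of these last differences depend on the long Kif1b exon length of 16.6 kb: in CPM without division by length, Kif1b was the higher gene in each. Combined exon length counts the exons of all annotated isoforms, so it can understate the level of a gene with long alternative exons. The 28 pairs form the same family in the paragraphs below, where "higher" means higher in 6 of 6 libraries with an exact permutation adjusted p of 0.0324.

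Mfn2, the mitofusin that joins outer mitochondrial membranes, and Gdap1, a protein of the same membrane that acts in mitochondrial fission, were the mitochondrial members. Gdap1 (chromosome 1, 17145373 to 17164271, plus strand) was measured at 22.4, 11.3, 26.0, 17.9, 12.2 and 17.2 CPM in replicates 1 to 6. It was highest in replicate 3 and lowest in replicates 2 and 5, a 2.29-fold range that was the widest of the 35 members. Mfn2 had a lowest, median and highest level of 115.2, 132.6 and 146.4 CPM, and its mean of 23.5 ± 2.10 CPM per kb was higher than that of its paralogue Mfn1, 17.1 ± 1.57 CPM per kb (SD, n = 6), by 0.46 ± 0.13 on the log2 scale. Gdap1, at 4.53 ± 1.44 CPM per kb, was higher than its paralogue Gdap1l1 by 0.57 ± 0.17. The 9 other genes of mitochondrial fusion and fission ran from Oma1 at 0.936 ± 0.0695 CPM per kb to Fis1 at 70.0 ± 2.68 CPM per kb.

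The largest group was that of the endosome, the lysosome and the phosphoinositides, with 9 members. Rab7, the small GTPase of late endosomes, was the highest of them at 130 ± 5.03 CPM per kb (SD, n = 6). Its levels were 350.1, 348.2, 340.8, 343.7, 314.3 and 345.4 CPM in replicates 1 to 6, so that only replicate 5 lay below 340 CPM. Litaf, a small membrane protein of the endosome, followed at 81.5 ± 7.84 CPM per kb and was lowest in replicate 1, at 174.2 CPM, and highest in replicate 6, at 224.4 CPM. Dnm2, the dynamin found in all tissues that cuts vesicles from membranes, had a CV of 4.02% and was higher than the neuronal Dnm1 by 1.31 ± 0.30 on the log2 scale.

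Mtmr2 is a phosphatase that removes a phosphate from endosomal phosphoinositides, and Sbf1 and Sbf2 are catalytically inactive relatives that bind it. Sbf1 was measured at 180.9, 173.2, 159.5, 154.8, 146.9 and 157.2 CPM in replicates 1 to 6, and Sbf2 at 212.9, 196.8, 180.8, 176.7, 166.6 and 182.7 CPM. These 2 genes were highest in replicate 1, next in replicate 2 and lowest in replicate 5, and per length they were nearly equal, with a difference of 0.046 ± 0.022 on the log2 scale (SD, n = 6). That small difference had the same sign in 6 of 6 libraries and turned round without division by length. Mtmr2 itself, highest in replicate 1 at 116.8 CPM and lowest in replicate 5 at 86.2 CPM, was lower than Sbf1 by 1.14 ± 0.063 and lower than Sbf2 by 1.10 ± 0.047. The mean levels were 25.5 ± 1.97 CPM per kb for Sbf1, 24.7 ± 2.17 for Sbf2 and 11.5 ± 1.28 for Mtmr2. Counts of Mtmr2 were fractional in all 6 libraries, as happens where a read is divided among genes, so its level is less certain.

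Fig4, a phosphoinositide phosphatase, works in 1 complex with the scaffold Vac14 and the kinase Pikfyve. Fig4 had a lowest, median and highest level of 31.7, 35.4 and 37.1 CPM, and its mean of 10.7 ± 0.62 CPM per kb lay beside 11.6 ± 0.676 CPM per kb for Vac14 (SD, n = 6). The difference between them was -0.12 ± 0.12 on the log2 scale, between -0.22 and 0.053 over the libraries, and was the only 1 of the 28 that did not pass (exact permutation p = 0.125). Fgd4, an exchange factor for Cdc42, was low at 3.53 ± 0.529 CPM per kb, with its highest level in replicate 1, 43.8 CPM, and its lowest in replicate 6, 28.8 CPM. The 13 other genes of phosphoinositide turnover all reached 1 CPM in every library, from Mtmr1 at 3.75 ± 0.284 CPM per kb to Mtmr6 at 44.2 ± 3.96 CPM per kb.

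Sh3tc2, a Schwann cell protein of the recycling endosome, was measured at 57.9, 49.4, 49.95, 42.3, 31.9 and 54.5 CPM in replicates 1 to 6. Replicate 5 was the lowest and replicate 4 the next, and the mean was 7.85 ± 1.54 CPM per kb (SD, n = 6). Its paralogue Sh3tc1 was nearly absent, with 0.158 ± 0.164 CPM per kb and no library above 45 counts, and Sh3tc2 was higher by 5.12 ± 1.08 on the log2 scale with 0.1 added to each level. That difference was smallest, 3.24, in replicate 5.

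Atl1 and Atl3 are atlastins, GTPases that fuse tubules of the endoplasmic reticulum, and Bscl2 encodes seipin, which acts where lipid droplets form. Atl1, the atlastin known from neurons (chromosome 12, 69893105 to 69964085, plus strand), was measured at 40.5, 35.5, 51.1, 35.4, 25.6 and 39.4 CPM in replicates 1 to 6. Replicate 3 was the highest and replicate 5 the lowest. Atl3 was at 33.8 ± 2.43 CPM per kb, with its highest level, 253.5 CPM, in replicate 5, and was higher than Atl1 by 1.35 ± 0.36 and higher than Atl2 by 3.56 ± 0.15 on the log2 scale. The difference between Atl3 and Atl1 was 2.04 in replicate 5 and between 0.98 and 1.33 in the others, as the plot of members against paralogues shows. Bscl2 had a mean of 19.96 ± 1.5 CPM per kb and was lowest in replicate 1, at 44.6 CPM. Of 9 other genes of this organelle's shape and of seipin's partners, Rtn4 was the highest at 142 ± 13.0 CPM per kb and Atl2 the lowest at 2.80 ± 0.429 CPM per kb.

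Sptlc1 and Sptlc2 form serine palmitoyltransferase, the enzyme that starts the synthesis of sphingolipids. They were among the steadiest members: Sptlc1 lay between 46.5 and 48.9 CPM with a median of 47.8 CPM, and Sptlc2 between 74.3 and 83.6 CPM with a median of 77.5 CPM. Their CVs were 2.01% and 4.63%. Per length, Sptlc1 was higher than Sptlc2 by 0.21 ± 0.070 on the log2 scale, while in CPM without length Sptlc2 was the higher. The alternative subunit Sptlc3 had 0 counts in every library, and Sptlc2 was at least 169.5-fold higher than the level that 3 counts per library would give to Sptlc3. Sptssb, a small subunit of the same enzyme, also had 0 counts in every library, and the other 9 genes listed for ceramide synthesis passed the filter on low counts, with Cers2 the highest at 127 ± 7.90 CPM per kb.

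Lmna, which encodes the A-type lamins of the nuclear envelope, was among the highest members at 139 ± 18.1 CPM per kb (SD, n = 6), with a lowest, median and highest level of 425.2, 472.1 and 586.3 CPM. It was higher than Lmnb1 by 3.83 ± 0.46 on the log2 scale, least in replicate 5 and most in replicate 1. Inf2, a formin that builds and severs actin filaments, was highest in replicates 1 and 2, at 554.0 and 555.8 CPM, and lay between 449.9 and 473.1 CPM in the other 4. Lmna shared that placement, with its highest levels of 586.3 CPM in replicate 2 and 537.3 CPM in replicate 1.

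Dst (chromosome 1, 33907888 to 34308662, plus strand) encodes dystonin, a giant linker between filament systems whose isoforms differ between neurons, muscle and skin. It took more counts than any other member, with 1673, 1195, 1260, 965.2, 898.8 and 1196 CPM in replicates 1 to 6. Replicate 1 was the highest and replicates 4 and 5 the lowest, a 1.86-fold range. Per length it was at 28.7 ± 6.55 CPM per kb (SD, n = 6), over a combined exon length of 41.7 kb, and was higher than its relative Macf1 by 2.79 ± 0.48 on the log2 scale. Counts of Dst and Inf2 were fractional in all 6 libraries, so part of their reads may belong to other genes, and the table does not tell the isoforms of Dst apart.

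Hspb8, a small heat shock protein, and its co-chaperone Bag3 act together to deliver misfolded proteins to autophagy, and Dnajb2 is a co-chaperone of Hsp70 known from neurons. Bag3 was the highest at 67.9 ± 4.43 CPM per kb, against 31.7 ± 5.32 for Hspb8 and 21.7 ± 2.52 for Dnajb2 (SD, n = 6). Hspb8 was lower than Bag3 by 1.12 ± 0.27 on the log2 scale and higher than Hspb1, another small heat shock gene mutated in motor neuropathy, by 0.59 ± 0.33. Hspb8 was lowest in replicate 2 at 41.3 CPM and highest in replicate 3 at 68.8 CPM, whereas Bag3 was lowest in replicate 6 at 161.0 CPM and highest in replicate 5 at 190.7 CPM, so the partners did not share an order of cultures. Of 16 other chaperones and co-chaperones, 15 reached 1 CPM in every library, and the level ran from Hspb7 at 0.679 ± 0.543 CPM per kb to Hsp90ab1 at 558 ± 40.2 CPM per kb.

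The start sites of Hspb8 and Bag3 are shown because heat shock genes are known to be driven by HSF1 through repeats of the letters GAA in alternate direction. The letters GAANNTTC, which read the same on both strands, were found in the promoter windows of 3 of 29 members (10.3%), namely Hspb8, Bag3 and Fgd4, in 7 of 11 other chaperone genes with a window (63.6%), and in 6.8% of tested genes with a window. The windows of 30 bases around the matches lie at chr5:116422844-116422873 on the minus strand for Hspb8 and at chr7:128523603-128523632 on the plus strand for Bag3, both of GRCm38.p6, with the match in capitals.
Hspb8, match at bases 3 to 10 after the start: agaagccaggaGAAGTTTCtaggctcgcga
Bag3, match at bases 43 to 50 after the start: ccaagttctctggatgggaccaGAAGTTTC
The 8 letters of the match were the same in both genes.

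The members of signalling and of nucleotide metabolism were a mixed group. Ndrg1, a stress-induced protein of the Schwann cell cytoplasm, was the highest of all members per length, at 172 ± 27.1 CPM per kb, and in CPM without length was measured at 514.6, 518.7, 544.5, 490.1, 348.9 and 571.9 in replicates 1 to 6. Replicate 5 lay well below the other 5. Ndrg1 was higher than Ndrg2 by 2.10 ± 0.27 on the log2 scale (SD, n = 6). Hint1, a small nucleotide-binding hydrolase, was at 126 ± 7.53 CPM per kb with a CV of 5.99%. Wnk1, a kinase that controls chloride cotransporters, was at 46.6 ± 3.36 CPM per kb and higher than Wnk2 by 6.21 ± 0.49.

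Prps1, which makes the phosphoribosyl donor for nucleotide synthesis, had a lowest, median and highest level of 19.5, 21.3 and 25.9 CPM and was highest in replicates 4 and 5. Per length it was at 11.2 ± 1.32 CPM per kb and higher than Prps2 by 0.33 ± 0.13 on the log2 scale (SD, n = 6), whereas in CPM without length Prps2 was the higher. Gnb4, a beta subunit of G proteins, lay between 39.4 CPM in replicate 6 and 73.8 CPM in replicate 1. It was lower than Gnb1, the main beta subunit, by 4.87 ± 0.30. Ighmbp2, a helicase bound to ribosomes and mutated in a motor neuropathy of infants, was the lowest member, with 10.6, 12.7 and 13.9 CPM as lowest, median and highest level.

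**Figure D3:**
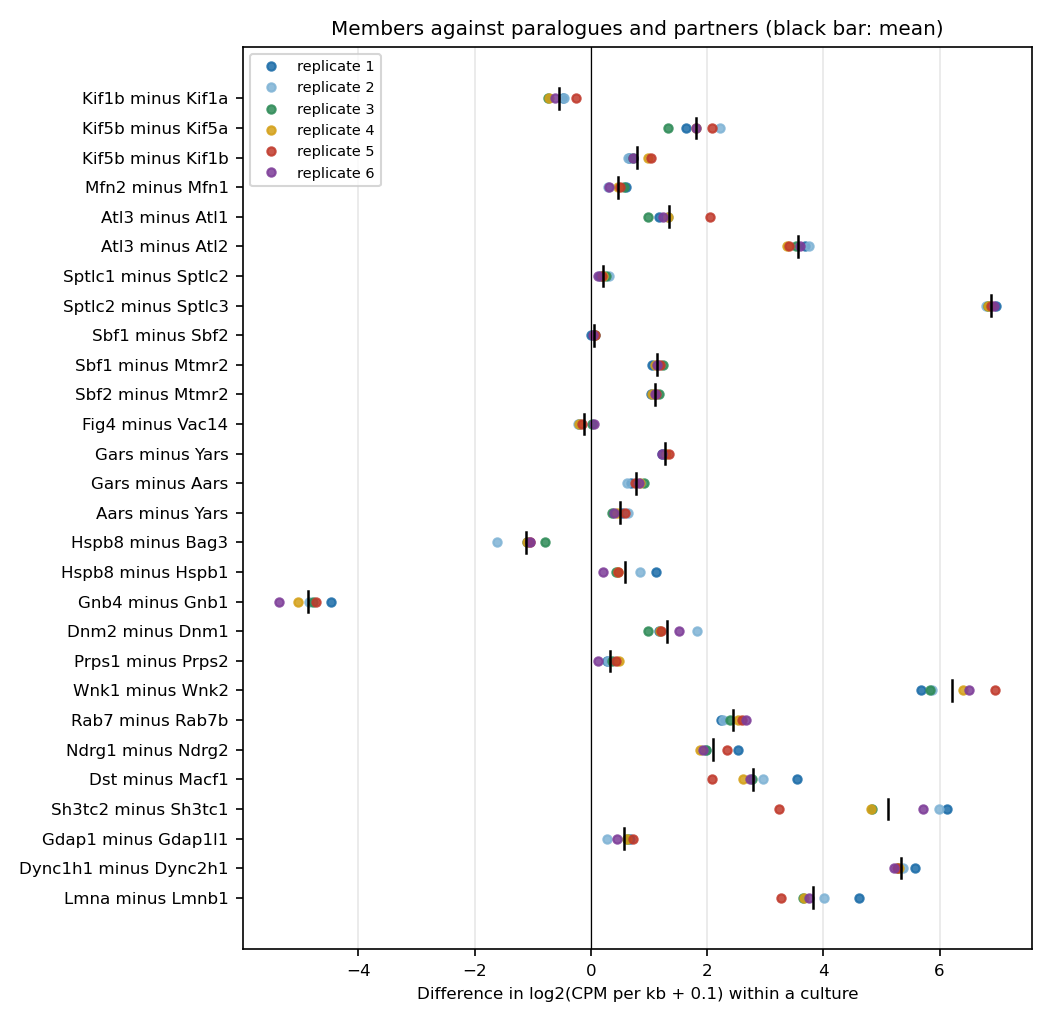
Within-culture difference in log2(CPM per kb + 0.1) for the 28 pairs, with 1 point per culture coloured by replicate and a black bar at the mean, where the first gene named is the higher to the right of 0. The points of 27 pairs lie on 1 side of 0, those of Fig4 minus Vac14 lie on both, and Kif1b, Hspb8 and Gnb4 lie below their partners; for Sptlc3, listed at 0, the position is set by the 0.1 added.

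Of the 27 pairs past the threshold, 24 had the first gene named as the higher and 3 the second. Expressed as ratios of mean levels per length, the differences ran from 1.03-fold for Sbf1 over Sbf2 to 81.9-fold for Wnk1 over Wnk2 where both genes were counted. With 6 libraries each passing pair had the same p, so the sizes and not the p-values tell the pairs apart. No pair could pass with any library left out, since 5 libraries cannot give a p below the threshold.

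The cultures of the study were of 1 kind, so the comparison left was between replicates that differed in their mix of cells. For each tested gene, edgeR's quasi-likelihood fit gave the slope of its level on a marker score, the mean log2 level of a marker list, with p-values adjusted over all 14998 genes. The slope is a log2 change per log2 unit of the score. The neuron score (12 markers, among them Tubb3, Stmn2 and Prph) was 6.21, 5.57, 6.55, 5.99, 5.53 and 6.14 in replicates 1 to 6. The glial lineage score (8 markers, among them Sox10 and Erbb3) was 8.33, 8.43, 8.35, 8.15, 7.90 and 8.40, and the fibroblast score (8 markers, among them Col1a1 and Pdgfra) was 5.27, 6.58, 6.73, 7.72, 8.49 and 6.43. Replicate 5 was lowest in the neuron and glial scores and highest in the fibroblast score, and no member is in any of the lists.

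The steepest positive slopes on the neuron score were those of Gdap1 and Kif5a. Gdap1 had a slope of 1.14 ± 0.15 (SE; edgeR adjusted p = 0.0616) and Kif5a a slope of 0.92 ± 0.13 (SE; edgeR adjusted p = 0.0661). The other members with an unadjusted p under 0.05 were Atl1 at 0.69 ± 0.18, Kif1a at 0.62 ± 0.22 and Mfn2 at 0.29 ± 0.094, with edgeR adjusted p-values of 0.288, 0.430 and 0.398. In edgeR's test 0 of 35 members passed the threshold, and these 5 had an unadjusted p under 0.05. Sh3tc2 at 0.43 ± 0.29, Dst at 0.42 ± 0.32, Ndrg1 at 0.36 ± 0.24, and Kif1b and Hspb8 had steeper slopes than Mfn2 with larger errors. Across all genes 0% were called in either direction by edgeR, although 1478 had an unadjusted p under 0.05, and DESeq2 called 323 genes (1.92% of tested genes with a positive and 0.233% with a negative slope). By DESeq2 the slopes of Gdap1 (adjusted p = 4.4e-06) and Kif5a (adjusted p = 4.56e-07) passed, and over the alternatives run their adjusted p-values reached up to 1. Of the 12 neuron markers themselves, 11 had an unadjusted p under 0.05 in edgeR's fit and 0 were called. Each of these markers is part of the score, so a positive slope on it is partly built in.

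**Figure D4:**
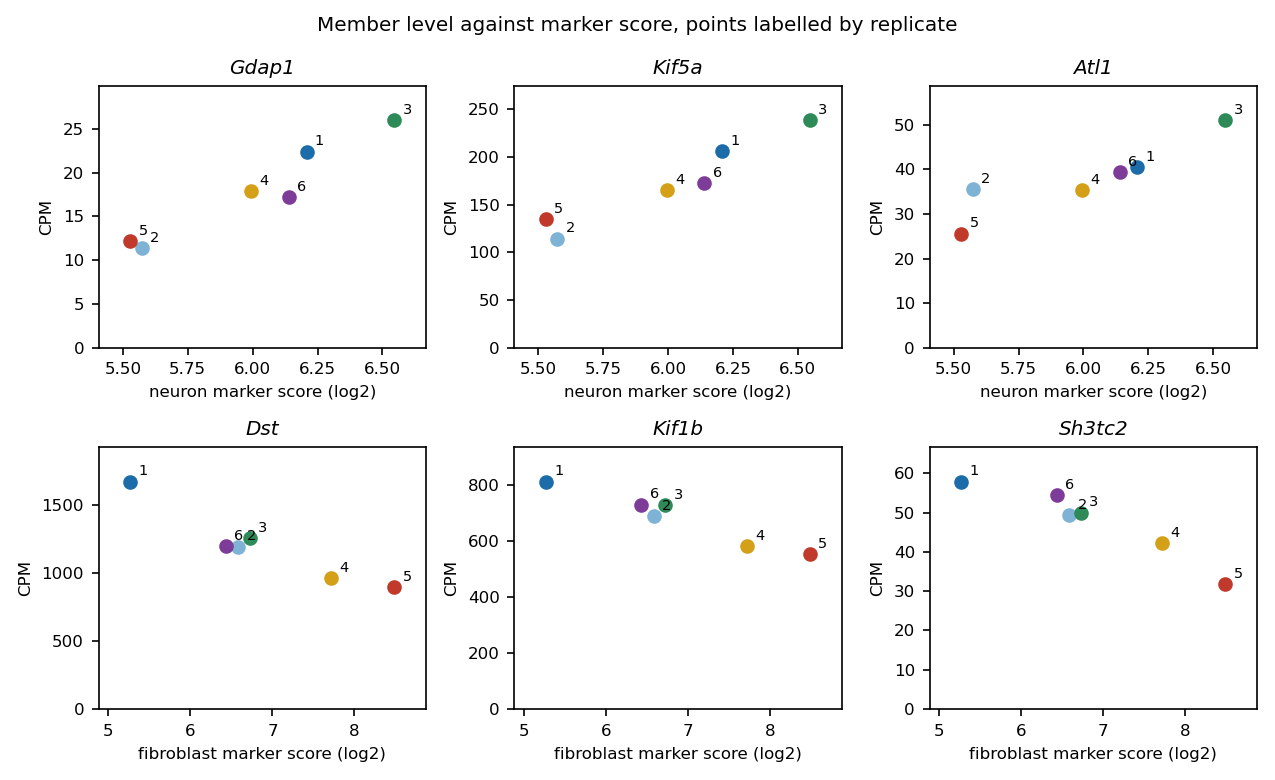
Level in CPM of Gdap1, Kif5a and Atl1 against the neuron marker score, and of Dst, Kif1b and Sh3tc2 against the fibroblast marker score, with 1 point per culture numbered by replicate and level axes that start at 0. Replicate 3 is highest and replicates 2 and 5 are lowest for Gdap1 and Kif5a, and the lower 3 genes are highest in replicate 1 and lowest in replicate 5.

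On the glial lineage score, Sh3tc2 had the steepest slope and the smallest adjusted p-values were those of Sh3tc2, Ndrg1 and Dnajb2. Sh3tc2 had a slope of 1.504 ± 0.29 (SE; edgeR adjusted p = 0.0694), Ndrg1 a slope of 1.24 ± 0.24 (SE; edgeR adjusted p = 0.0694) and Dnajb2 a slope of 0.89 ± 0.17 (SE; edgeR adjusted p = 0.0699). Kif1a at 1.39 ± 0.35, Atl1 at 1.34 ± 0.42 and Kif1b at 0.93 ± 0.30 had edgeR adjusted p-values from 0.102 to 0.144. Dst at 1.2 ± 0.51 and Gdap1 at 0.98 ± 0.90 were steeper than Kif1b with larger errors, and their unadjusted p was not under 0.05. The only negative slope with an unadjusted p under 0.05 was that of Prps1, -0.64 ± 0.25 (SE; edgeR adjusted p = 0.197). No member was called by edgeR, beside 0.0667% of all tested genes with a called positive and 0.213% with a called negative slope. At an unadjusted p under 0.05 there were 7 of 35 members, beside 3297 of 14998 tested genes. Of the 8 glial lineage markers themselves, 6 had an unadjusted p under 0.05 in edgeR's fit and 0 were called. Each marker is part of this score, so a positive slope on it is partly built in. The exceptions were Gfra3 at 0.68 ± 0.92 and Sox2 at 0.62 ± 0.51. Gfra3, which is not in the neuron list, had a slope of 0.90 ± 0.33 on the neuron score (SE; edgeR unadjusted p = 0.0340). The glial lineage score may thus not follow glial genes alone. DESeq2, which gave 4.25% of tested genes a called positive and 4.45% a called negative slope, called 6 members: Sh3tc2, Ndrg1, Dnajb2, Kif1a, Atl1 and Kif1b. Without replicate 1, edgeR called 3, namely Sh3tc2, Ndrg1 and Dnajb2, and the share of all tested genes called in that setting is not given here. The slopes of Kif1a, Kif1b, Atl1 and Sh3tc2 turned negative without replicates 4 and 5, the lowest in this score, so their sign rests on those cultures. The cultures left had glial scores only between 8.33 and 8.43. A slope over so narrow a range is poorly determined and is not read as an opposite trend.

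On the fibroblast score, 3 members passed, all with a negative slope, beside 1.2% of all tested genes with a called negative slope and 5.09% with a called positive slope. Dst fell by 0.29 ± 0.042 per unit of the score (SE; edgeR adjusted p = 0.00987), Sh3tc2 fell by 0.27 ± 0.045 (SE; edgeR adjusted p = 0.0156) and Kif1b fell by 0.19 ± 0.036 (SE; edgeR adjusted p = 0.0254). A further 8 members had an unadjusted p under 0.05: Kif1a, Ndrg1, Dnajb2, Mtmr2, Sbf2, Sbf1 and Mfn2 with a negative slope and Prps1 with a positive slope of 0.11 ± 0.045. With the 3 called, 11 of 35 members were under that cut, beside 3499 of 14998 tested genes. Over all members the median slope was -0.081, with 26 of 35 negative, against -0.0045 over all tested genes, of which 7771 of 14998 were negative. DESeq2 called 5 members, adding Kif1a and Sbf2 to these 3, beside 3.87% of tested genes with a called negative and 7.51% with a called positive slope.

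These calls rest on the cultures at the ends of the score. Without replicate 5, 0 members were called, with edgeR adjusted p-values of 0.0815 for Dst, 0.203 for Sh3tc2 and 0.219 for Kif1b. Without replicate 4 only Sh3tc2 was called, and without replicate 1 Dst and Kif1b were not (edgeR adjusted p = 0.0622 and 0.0632), while Dnajb2 was (edgeR adjusted p = 0.042). The shares of all tested genes called in these settings are not given here. The slopes of the 3 genes stayed negative in every alternative run, between -0.33 and -0.23 for Dst, -0.35 and -0.20 for Sh3tc2, and -0.27 and -0.16 for Kif1b. The summed markers of mural, macrophage and endothelial cells given above also differed between these cultures, and the part of any of these cells in the result was not tested.

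**Figure D5:**
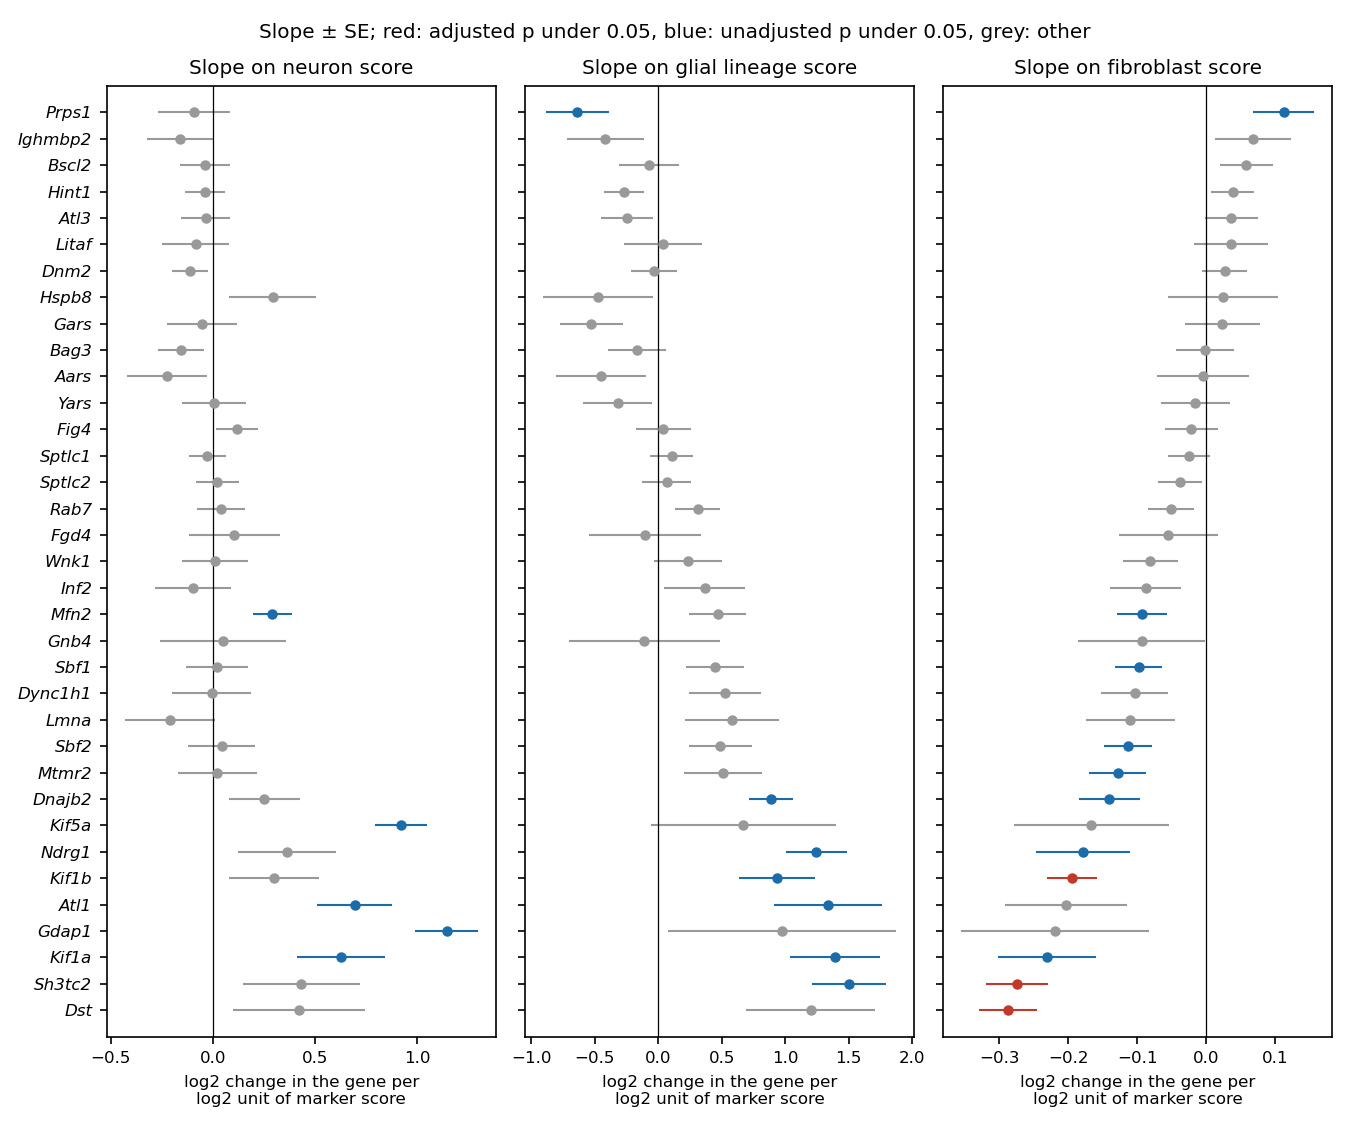
Slope of each of the 35 genes on the neuron, glial lineage and fibroblast marker scores, with bars of 1 SE, in red for an edgeR adjusted p under 0.05, in blue for an unadjusted p under 0.05 only, and in grey otherwise. Genes are ordered by the fibroblast slope, and Dst, Sh3tc2 and Kif1b are the only red points.

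By form of the disease, the 9 members of mainly demyelinating forms (Litaf, Gdap1, Mtmr2, Sbf1, Sbf2, Sh3tc2, Ndrg1, Fgd4 and Fig4) took from 0.106% of counts in replicate 5 to 0.137% in replicate 6. Of these 9, 5 were lowest in replicate 5, 8 had a positive slope on the glial lineage score and 8 a negative slope on the fibroblast score, with 1 call, that of Sh3tc2. Among them, the glial lineage slopes of Litaf and Fig4 were near 0, at 0.038 ± 0.31 and 0.039 ± 0.22 (SE). Over the 14998 tested genes, 7895 had a positive slope on the glial lineage score and 7771 a negative slope on the fibroblast score. The 7 members of the hereditary sensory neuropathies (Sptlc1, Sptlc2, Wnk1, Atl1, Atl3, Dst and Kif1a) took from 0.221% in replicate 5 to 0.331% in replicate 1, and the largest part of this was Dst. These 7 were alike in sign: 6 had a positive slope on the glial lineage score and 6 a negative slope on the fibroblast score. Dst was the 1 call among them, and 3 were lowest in replicate 5. The 19 remaining members took from 0.394% in replicate 4 to 0.472% in replicate 1. Among these 19, 8 had a positive slope on the glial lineage score and 12 a negative slope on the fibroblast score. Kif1b was their 1 call, and 4 were lowest in replicate 5. In all, 12 of 35 members had their lowest level in replicate 5, as had 26.2% of tested genes.

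Another 44 genes of inherited neuropathy, not among the 35, were measured beside them. Of these 43 were tested, 41 reached 1 CPM in all libraries and 42 varied beyond counting noise. The level ran from Hspb3 at 0.0408 ± 0.0741 CPM per kb, with no more than 3 counts in any library, to the respiratory chain gene Cox6a1 at 151 ± 8.69 CPM per kb (SD, n = 6), and their median of 9.72 CPM per kb was below the 25.5 of the 35 members. On the neuron and glial scores 0 of them were called by edgeR, with 7 and 11 at an unadjusted p under 0.05, beside 1478 and 3297 of all 14998 tested genes. On the same scores DESeq2 called 3 and 6, among them the neurofilament gene Nefl and the sodium channel gene Scn9a on both scores. On the fibroblast score Pdk3, a kinase of the pyruvate dehydrogenase complex, rose by 0.35 ± 0.057 per unit (SE; edgeR adjusted p = 0.0156). Sord fell by 0.27 ± 0.035 and Trim2 fell by 0.29 ± 0.047, with edgeR adjusted p-values of 0.00513 and 0.0137.

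Of the lists of related genes, the 17 other synthetases, 9 mitochondrial, 13 phosphoinositide, 9 endoplasmic reticulum, 11 ceramide and 16 chaperone genes had 0 calls by edgeR on any score. At an unadjusted p under 0.05 they had, in that order, 2, 0, 1, 4, 0 and 0 genes on the neuron score, 6, 1, 4, 1, 1 and 5 on the glial score and 3, 1, 5, 4, 2 and 2 on the fibroblast score. Of all 14998 tested genes, 1478 were under that cut on the neuron score, 3297 on the glial score and 3499 on the fibroblast score. By DESeq2, 4 of the 9 endoplasmic reticulum genes rose on the neuron score, Reep1, Reep5, Rtn1 and Rtn3, beside 1.92% of tested genes. On the glial score 3 synthetase genes fell, Kars, Tars and Vars, beside 4.45% of tested genes. That score also had 2 chaperone genes called as rising and 1 ceramide gene as falling. On the fibroblast score 1 chaperone gene rose, and 1 chaperone and 1 endoplasmic reticulum gene fell. DESeq2 called 3, 1 and 3 kinesin, dynein and dynactin genes on the neuron, glial and fibroblast scores. Among the 15 other kinesin, dynein and dynactin genes, all had a negative slope on the fibroblast score, with a median of -0.091, and 1, Kif3a, fell past the threshold, by 0.17 ± 0.038 (SE; edgeR adjusted p = 0.0458). Wnk2, at 0.569 ± 0.243 CPM per kb, was the only partner gene called by edgeR, and fell by 0.53 ± 0.12 per unit of that score (SE; edgeR adjusted p = 0.0466).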

How the data were processed

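Per the labels' protocols, poly-A RNA of each culture was made into libraries with a stranded kit and 15 cycles of PCR, starting from 500 ng of RNA with an integrity number of 8.7 or more. Per the submitters' processing notes, which give neither roles nor order, the tools were bcl2fastq 2.20.0.422, cutadapt 2.5, STAR 2.7.2b and featureCounts 1.6.4, with the build GRCm38.p6. The authors deposited estimated counts per gene without scaling, made with these tools per the submitters' processing notes, and 13.4% to 14.7% of the cells of a library are not whole. The strand setting and the handling of reads that match several genes are not given in the sources used here. Of the 35 members, 20 had fractional counts in some library and 4 (Mtmr2, Dnm2, Inf2 and Dst) in all 6. The table held 0 further columns of per-sample values.

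Levels are CPM and CPM per kb of the deposited combined exon length, computed here, and percentiles are among tested genes. Counts were rounded for the count models, fitted in R 4.3.3 with edgeR 4.0.16 or DESeq2 1.42.0. The filter filterByExpr left 14998 genes, and libraries were scaled with TMM. All p-values over genes were adjusted by Benjamini-Hochberg with a threshold of 0.05. Marker scores are means of log2(TMM-scaled CPM + 0.5). The samples formed 1 group, numbered as in their titles, so p-values measure only the spread between these cultures, which may be partly technical. The members and all gene lists were chosen with earlier results of these data known, by name. Named genes were all members, their partners in pairs, and from each further list the highest, the lowest and those called. The values of some listed genes and 1 sequence are not reported here, although the genes count in their lists. Mars was matched to Mars1 by its RefSeq synonym. Promoter windows from RefSeq were found for 29 of 35 members and not for Kif5a, Gdap1, Sh3tc2, Ndrg1, Gnb4 and Hint1.

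The tests were tested on simulated data in which known genes changed. The chi-square test found 196 of the 200 genes that changed, of 14938 in all, with 9 other calls. The slope fits recovered 172 of 190 for the neuron score among 14790 genes, 166 of 192 for the glial score among 14781 and 160 of 194 for the fibroblast score among 14766, with 7, 10 and 12 other calls. Each simulated slope was steeper than the slope of any member on the same score. The shares recovered therefore do not tell how often slopes of the members' size would be found. Alternatives were DESeq2, no TMM, no filter, whole counts only, other pseudocounts, a median score, no length division, counts rounded down, and leaving out libraries.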

Additional observations from a re-analysis of the deposited data

Results flagged for a closer look

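Rab7 and Ndrg1 each had 1 culture far from the other 5, and in both it was replicate 5, on the low side. For Rab7 the gap between replicate 5, at 314.3 CPM, and the next lowest, at 340.8 CPM, was 0.738 of the whole range. For Ndrg1 the gap between replicate 5, at 348.9 CPM, and the next lowest, at 490.1 CPM, was 0.633 of the range. Both are above the critical value of Dixon's test for 6 samples, and chance alone flags about 1 in 20 groups, or 1.75 of 35 members, against the 2 seen. Dixon's test was run on the members only, so the share of all tested genes flagged is not given here. Replicate 5 was the lowest culture for 26.2% of tested genes, so a low value there is not particular to Rab7 and Ndrg1.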

How the results depend on the processing

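No paired analysis was possible because all 6 samples belong to 1 group. The main limits are the single group, the fractional counts, whose origin was not tested, and the combined exon length. The median level of 25.5 CPM per kb and all single levels moved by less than 1 SD with TMM scaling or counts rounded down, and the median lay between 24.9 and 25.9 CPM per kb with 1 library left out. Of the 32 members that varied beyond counting noise, 12 remained when only the 15 members with whole counts in every library were tested, and leaving out 1 library gave 31 to 33. Bscl2 no longer passed without replicate 1 (adjusted p = 0.396, chi-square) nor Hint1 without replicate 5 (adjusted p = 0.482, chi-square). DESeq2 in place of edgeR called 2 members on the neuron score, 6 on the glial score and 5 on the fibroblast score. With 1 library left out, edgeR called 0 on the neuron score, 0 to 3 on the glial score and 0 to 3 on the fibroblast score, and 0 on the fibroblast score without both replicates 1 and 5. The shares of all tested genes called with libraries left out are not given here, so these counts cannot be read against them. The glial slopes that turned round without replicates 4 and 5 became -2.27 for Kif1a, -1.59 for Kif1b, -3.12 for Atl1 and -0.91 for Sh3tc2, and the cause was not tested. These slopes are poorly determined, because the glial scores of the cultures left lay only between 8.33 and 8.43. Pairs past the threshold fell from 27 to 0 with any 1 library left out, because 5 libraries cannot reach it. Without division by length, differences turned round to 0.37 for Kif1b minus Kif1a, -0.67 for Kif5b minus Kif1b, -0.72 for Sptlc1 minus Sptlc2, -0.20 for Sbf1 minus Sbf2, -0.13 for Gars minus Aars and -0.80 for Prps1 minus Prps2, since these genes differ in length.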

Other observations

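Promoter composition was examined for the 29 members with a RefSeq window and set beside the tested genes with one. The letters GGGCGG, the core of the sites bound by the Sp1 family, were present on either strand at 27 of 29 members (93.1%) and 68.5% of tested genes. Members had more windows per gene, and counted by window the shares were 72.7% and 61.5%. The exceptions were Aars and Kif1a, which held CACGTG, as did Inf2 (10.3% of members, 11.5% of tested genes). TATAAA stood at Fgd4 and Rab7 (6.90% of members, 8.62% of tested genes), and CCAAT at 14 of 29 members (48.3%) and 43.1% of tested genes. The median GC content of the windows was 62.3% for members and 60.7% for tested genes, and the median CpG ratio, observed over expected, was 0.715 and 0.744. No test was made of these shares.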
